A study of Mus musculus with 3 samples.

Results

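The 41 genes described here encode the contractile and structural proteins of the striated muscle fibre, the proteins of its calcium stores and triads, and enzymes and binding proteins of its energy metabolism. They were chosen by symbol, and all 41 were found among the 32285 genes of the files. By role, 11 belonged to the thin filament, 8 to the thick filament, 10 to the Z disc and cytoskeleton, 6 to calcium handling and 6 to metabolism. Transcripts were counted in single cells of regenerating tibialis anterior muscle of C57/BL6J mice, 4 days after injury by barium chloride (BaCl2), a salt that kills muscle fibres and leaves their stem cells alive. Young PBS were mice of 3 to 4 months given saline, old PBS were mice of 24 to 26 months given saline, and old rMETRNL were mice of 24 to 26 months given recombinant meteorin-like, a secreted protein, into the muscle; all 3 groups were injured. Each group was 1 library, so that the groups had no replicates and no test between groups was possible. Tissue of several mice was pooled in each library per the study's methods, and mice could not be told apart. Every interval below is an exact 95% interval that covers counting error only, and each ratio compares 2 libraries.

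A muscle fibre forms when satellite cells (muscle stem cells, MuSCs) divide as myoblasts, withdraw from the cell cycle as myocytes and fuse. During this course the cells switch on the sarcomere, the unit in which thick filaments of myosin pull on thin filaments of actin, tropomyosin and troponin between Z discs, and they first use developmental isoforms that adult isoforms later replace. Calcium released through the ryanodine receptor starts contraction, and the SERCA pump takes it back. Fibres also spill their RNA when they break, and in droplet sequencing such free RNA is counted in cells of every kind. The comparison asked in which cell classes the transcripts of these genes were counted, which of them exceeded the level that free fibre RNA gave, and how the counts in each class differed with age and with rMETRNL.

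The proximal promoters of both actins and of the muscle creatine kinase are printed because Acta1 had the most UMIs of the members in fibre-like cells, Actc1 is the developmental isoform that it replaces, and Ckm is called in several classes below. The windows are the 150 bases before the RefSeq start site, on the strand of the gene, in GRCm38.p6. Capitals mark a CArG box, the binding motif of serum response factor, or the letters TATAA, and neither strand of these windows held an E-box, CANNTG, the motif of MyoD and myogenin. Acta1, skeletal muscle actin, is at chr8:123894776-123894925 on the minus strand, Actc1, cardiac actin, which developing muscle uses, at chr2:114052876-114053025 on the minus strand, and Ckm at chr7:19410944-19411093 on the plus strand.
Acta1: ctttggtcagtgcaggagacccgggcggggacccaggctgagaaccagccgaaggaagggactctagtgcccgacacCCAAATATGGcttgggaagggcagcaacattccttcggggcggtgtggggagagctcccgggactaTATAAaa
Actc1: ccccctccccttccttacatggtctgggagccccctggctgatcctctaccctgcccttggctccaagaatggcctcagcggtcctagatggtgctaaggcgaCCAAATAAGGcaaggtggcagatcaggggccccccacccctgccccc
Ckm: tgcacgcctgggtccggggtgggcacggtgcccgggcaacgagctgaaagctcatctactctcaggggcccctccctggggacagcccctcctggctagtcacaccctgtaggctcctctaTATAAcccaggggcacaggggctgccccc
Of the 41 members, 29 had a RefSeq promoter entry, with 36 start sites in all. In the 250 bases before them a CArG box was found at 5 (13.9%), which were those of Acta1, Actc1 and Myom1 and both of Ldb3, against 1.47% of 32851 start sites of 27025 genes. CANNTG was found at 28 (77.8%, against 66.2% of all), and TATAA on either strand at 7 (19.4%, against 22.8% of all). These are matches of letters in a window and not measured binding.

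After removal of poor barcodes and doublet calls, 10293 cells were kept in young PBS, 9946 in old PBS with 11353 in old rMETRNL, of 12168, 12568 and 14012 barcodes with 218059089, 179295668 and 228966697 UMIs (unique molecular identifiers, 1 for each transcript counted). The cells were clustered without the 41 members, and clusters were named from marker genes that are no members, with the ending "-like" because the names rest on transcripts alone. Between 24 and 32 kept barcodes were shared by 2 libraries. The libraries differed most in the fibre-like class, which held 33 cells in young PBS, 424 in old PBS against 127 in old rMETRNL. MuSC/myoblast-like cells numbered 315, 154 and 336, myocyte-like cells 151, 60 and 95, and macrophage/monocyte-like cells, the largest class, 6260, 6092 and 6856. How far these numbers follow the muscle and how far the dissociation was not tested.

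The members' transcripts lay mostly in the muscle classes, but in different ones in each library. The 3 muscle classes together held 84.7% of all member UMIs of kept cells in young PBS, 89.2% in old PBS with 83.5% in old rMETRNL. In young PBS most of these were in myocyte-like cells, with 53.0% of the library's member UMIs, whereas in old PBS 75.1% were in fibre-like cells. In old rMETRNL the fibre-like cells held 45.1% and the myocyte-like cells 24.8%. Macrophage/monocyte-like cells, which outnumbered all others, held 6.68%, 6.53% and 8.16%. The largest single share outside muscle and macrophages was in fibro/adipogenic progenitor-like (FAP-like) cells, with 6.20%, 2.22% and 5.58%.

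**Figure D1:**
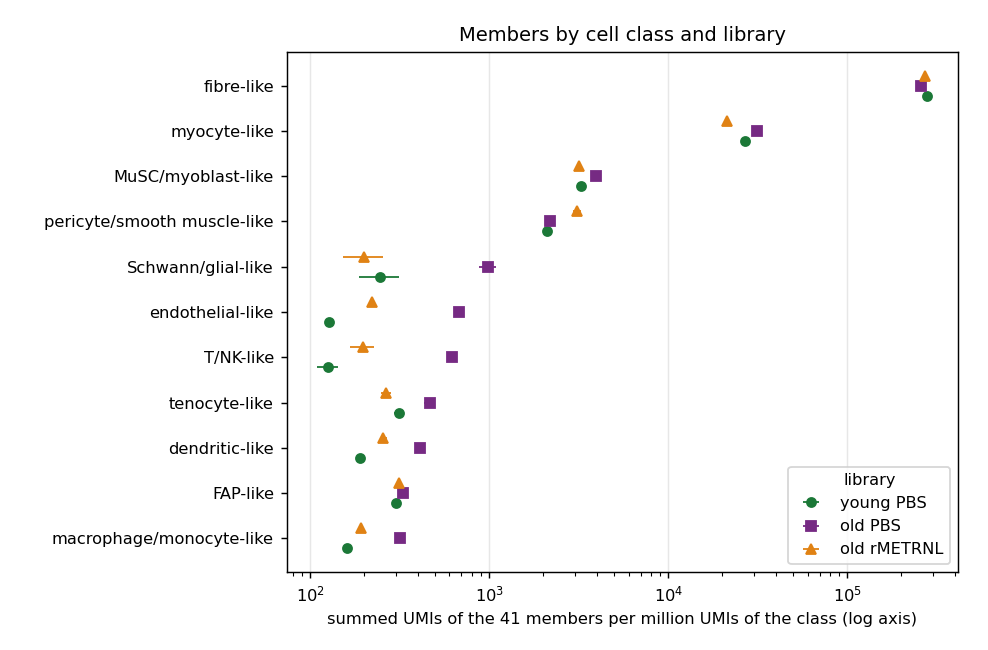
Summed level of the 41 members in counts per 1000000 UMIs of the class (CPM, log axis) for each cell class, with 1 point for each library and bars for the exact 95% counting interval. Fibre-like cells lie between 258593 and 278687 CPM, myocyte-like cells between 21208 and 31219, MuSC/myoblast-like cells between 3166 and 3961, and most non-muscle classes under 1000, with old PBS the highest of the 3 libraries in most of these.

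Within a class the summed level was expressed as CPM, counts per 1000000 UMIs of the class. In fibre-like cells the 41 members made up 27.9%, 25.9% and 27.2% of all UMIs, or 278687, 258593 and 271830 CPM in young PBS, old PBS and old rMETRNL. Myocyte-like cells had a far lower level, at 26945, 31219 and 21208 CPM. It was lower again in MuSC/myoblast-like cells, at 3251, 3961 and 3166 CPM. Pericyte/smooth muscle-like cells came next with 2092, 2189 and 3098 CPM. The remaining classes with at least 20 cells in each library ranged from 125 to 979 CPM. The order of the muscle classes was the same in all 3 libraries.

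In non-muscle cells the members were counted in most cells at a few UMIs each, and more so in old PBS. A macrophage/monocyte-like cell had a median of 1 member UMI in young PBS, 3 in old PBS against 2 in old rMETRNL, at median depths of 14047.5, 14613 and 14306.5 UMIs per cell, and at least 1 member UMI was found in 75.7%, 94.6% and 81.8% of these cells. T/NK-like cells, which build no sarcomeres, had medians of 1, 3 and 1 at depths of 5820, 5984 and 5080, and at least 1 member UMI in 62.9%, 92.4% and 62.6% of cells. Endothelial-like cells had the same medians of 1, 3 and 1 at depths of 11376, 3948 and 7260.5. Summed over each class, the ratio of CPM with age was 4.95 (4.27 to 5.75) in T/NK-like, 5.35 (5.03 to 5.69) in endothelial-like, 2.16 (2.01 to 2.32) in dendritic-like and 1.48 (1.36 to 1.62) in tenocyte-like cells, and with rMETRNL it was 0.317, 0.324, 0.623 and 0.570. Some of these sums rested on few cells, since the 1% of cells with the most member UMIs held 43.4% of them in T/NK-like cells of old PBS, against 4.55% in young PBS, and 37.5% in tenocyte-like cells of young PBS, against 15.8% in old PBS. Without the fullest 1% of cells in each library, an alternative chosen after the data had been seen, the ratio with age was 2.93 (2.49 to 3.45) in T/NK-like, 4.86 in endothelial-like, 1.87 in dendritic-like and 1.94 (1.75 to 2.15) in tenocyte-like cells, and that with rMETRNL 0.526 (0.438 to 0.629), 0.351, 0.597 and 0.605. Over all cells of the class, the ratios of CPM with age and with rMETRNL were 1.10 (1.07 to 1.12) and 0.943 (0.919 to 0.967) in FAP-like cells, and 1.05 (0.970 to 1.13) and 1.42 (1.31 to 1.52) in pericyte/smooth muscle-like cells. In CPM, old PBS was the highest library in each of these classes except pericyte/smooth muscle-like cells. The depth of the cells also differed between libraries, and as member UMIs per cell, a scale added after the data had been seen, the ratio with age was 5.05 in T/NK-like, 2.45 in endothelial-like, 2.37 in dendritic-like and 1.15 in tenocyte-like cells, and that with rMETRNL 0.260, 0.525, 0.559 and 0.597. In FAP-like cells the direction turned, since a cell held a mean of 8.45, 7.36 and 8.003 member UMIs, a ratio of 0.871 with age and 1.09 with rMETRNL. In pericyte/smooth muscle-like cells the ratios per cell were 0.639 and 1.69. The number of fibre-like cells was highest in old PBS as well, and barcodes with under 500 genes, which were not kept as cells, gave 1.38%, 5.29% and 2.06% of their UMIs to the members. The part of free RNA in each difference was not tested.

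**Figure D2:**
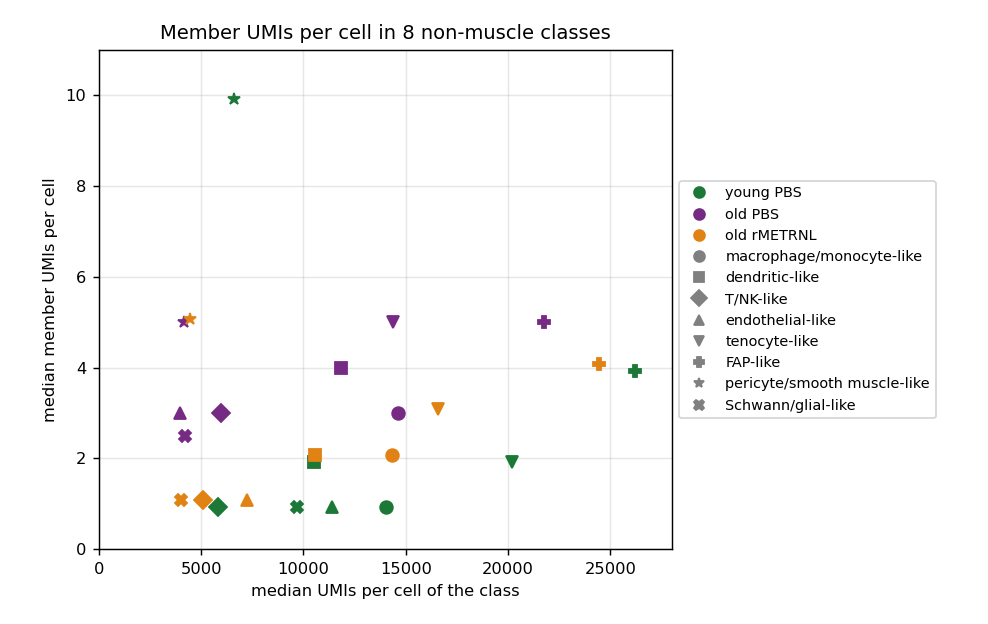
Median number of UMIs from the 41 members per cell (vertical axis) against the median number of all UMIs per cell (horizontal axis) in 8 non-muscle classes, 1 point for each class (symbol) and library (colour), the points of the libraries set slightly apart vertically so that none hides another. The medians run from 1 to 10 member UMIs, old PBS is at 3 and young PBS at 1 in macrophage/monocyte-like, T/NK-like and endothelial-like cells, and the highest point is the pericyte/smooth muscle-like class of young PBS.

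The age contrast in macrophage/monocyte-like cells lay in adult fibre transcripts. The summed level was 161 CPM in young PBS, 318 in old PBS with 192 in old rMETRNL, a ratio of 1.97 (1.93 to 2.01) for old PBS over young PBS and of 0.606 (0.595 to 0.617) for old rMETRNL over old PBS; both ratios share the old PBS library. A member was called here and below where it differed at least 2-fold, its interval left out 1 and the 2 libraries together held at least 50 UMIs. With age 23 of 41 members were called higher and 0 lower, where 1.78% of all 13616 genes tested were called higher and 1.59% lower. With rMETRNL 0 were called higher and 10 lower, against 1.23% and 0.674% of 13792 genes. The median log2 ratio of the members was 1.24 with age and -0.69 with rMETRNL, against -0.0033 and 0.05 over all genes tested.

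By role, 3 of 11 thin filament members, 3 of 8 thick filament members, 8 of 10 Z disc and cytoskeleton members, 4 of 6 calcium handling members and 5 of 6 metabolic members were called higher with age in macrophage/monocyte-like cells. In the thin filament, Acta1 was counted at 22.2, 52.6 and 27.4 CPM in young PBS, old PBS and old rMETRNL, Tnnt3, fast troponin T, at 8.61, 22.7 and 12.8, and Tnnc2, fast troponin C, at 7.76, 23.8 and 12.97. In the thick filament, Myl1, the fast essential light chain, was at 7.87, 24.3 and 12.3 CPM, and Mybpc2, fast myosin-binding protein C, at 0.0918, 1.18 and 0.401. For each of these genes old PBS was the highest library and young PBS the lowest. The largest ratios with age were those of Mybpc2 (12.9, 6.57 to 28.9) and of Pvalb, parvalbumin, the calcium buffer of fast fibres (12.2, 8.95 to 17.0), whose level was 0.449, 5.47 and 2.004 CPM. At the Z disc, Myot, myotilin, differed 5.38-fold (2.88 to 10.9), Xirp2 4.14-fold (2.63 to 6.76) and Tcap, telethonin, 3.78-fold (2.95 to 4.88). Among metabolic members, Ckm differed 4.37-fold (3.91 to 4.89), Car3, carbonic anhydrase 3, 3.94-fold (2.97 to 5.29) and Mb, myoglobin, 3.33-fold (2.58 to 4.34).

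The developmental and slow isoforms went the other way. Actc1, Myl4, the embryonic essential light chain, and Tnnt2, cardiac troponin T, which embryonic muscle uses, had ratios of 0.806, 0.763 and 0.831 with age in macrophage/monocyte-like cells. Those of the slow troponins Tnnt1, Tnnc1 and Tnni1 were 0.682, 0.753 and 0.685. No interval of these 6 genes reached 1, but none met the 2-fold call. They were the only 6 of 41 members with a ratio under 1. Among the transcripts of 3 isoform pairs (Actc1, Myl4 and Tnnt2 with Acta1, Myl1 and Tnnt3), the developmental isoforms gave 26.6% in young PBS, 10.1% in old PBS against 16.0% in old rMETRNL. The same order was seen in FAP-like cells with 38.5%, 13.1% and 19.7%, and in endothelial-like cells with 41.6%, 5.44% and 19.96%. In all 3 classes young PBS was highest and old PBS lowest. These shares in non-muscle cells lay between those of fibre-like cells, 0.752%, 0.388% and 0.358%, and those of myocyte-like cells, 35.7%, 27.6% and 28.0%, of the same libraries, except in FAP-like and endothelial-like cells of young PBS, which lay above both. The share of FAP-like cells rests mostly on Myl4, with 292 UMIs in young PBS against 56 of Actc1 and 54 of Tnnt2. Myl4 was among the members called in that class with fewer anchor genes, as given below.

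**Figure D3:**
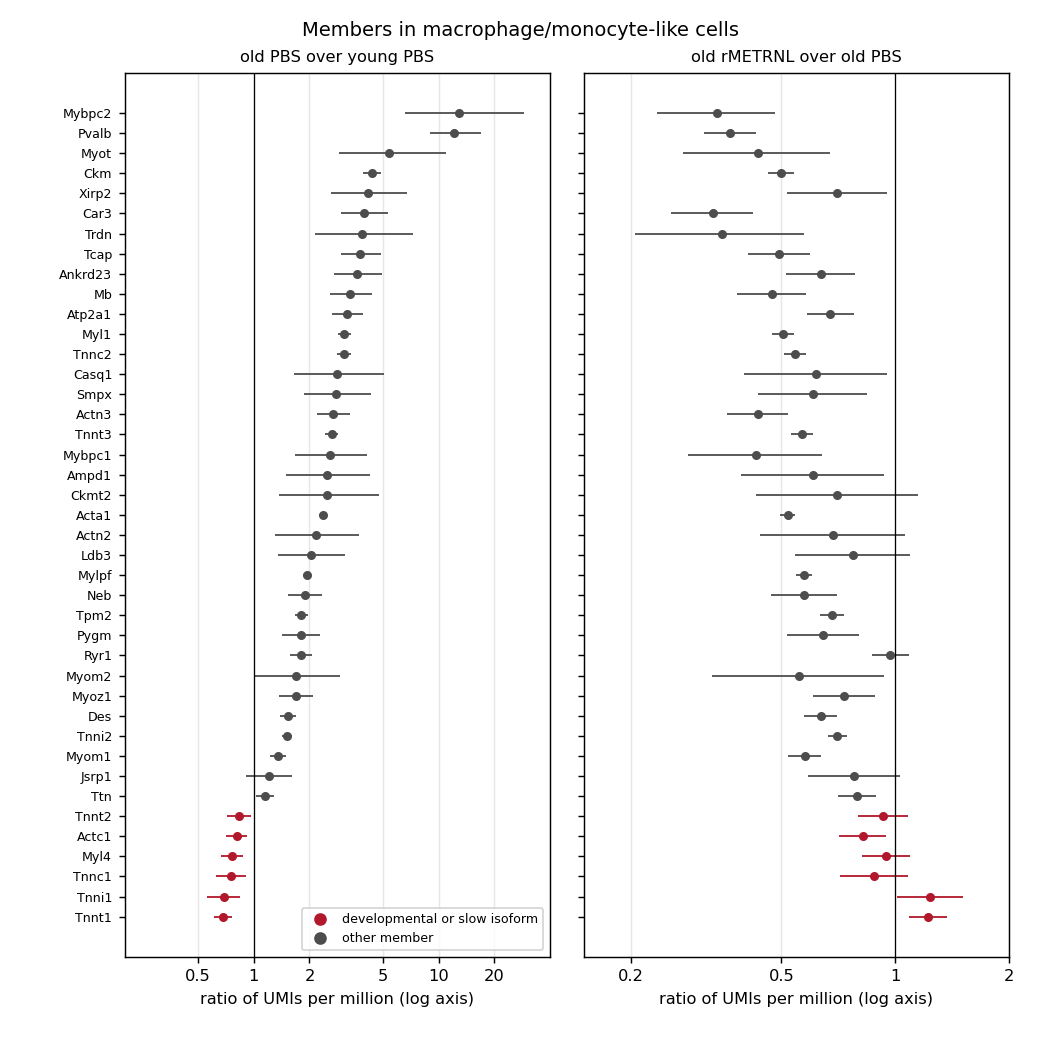
Ratio of CPM in macrophage/monocyte-like cells (log axis, 1 marked by a line) for the members, in order of the ratio with age, with exact 95% counting intervals; the left panel is old PBS over young PBS, the right one old rMETRNL over old PBS, and red points are the developmental and slow isoforms. With age 35 of 41 members lie above 1, and the 6 below it are Actc1, Myl4, Tnnt2, Tnnt1, Tnnc1 and Tnni1; with rMETRNL Tnnt1 at 1.22 and Tnni1 at 1.24 are the members above 1.

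**Figure D4:**
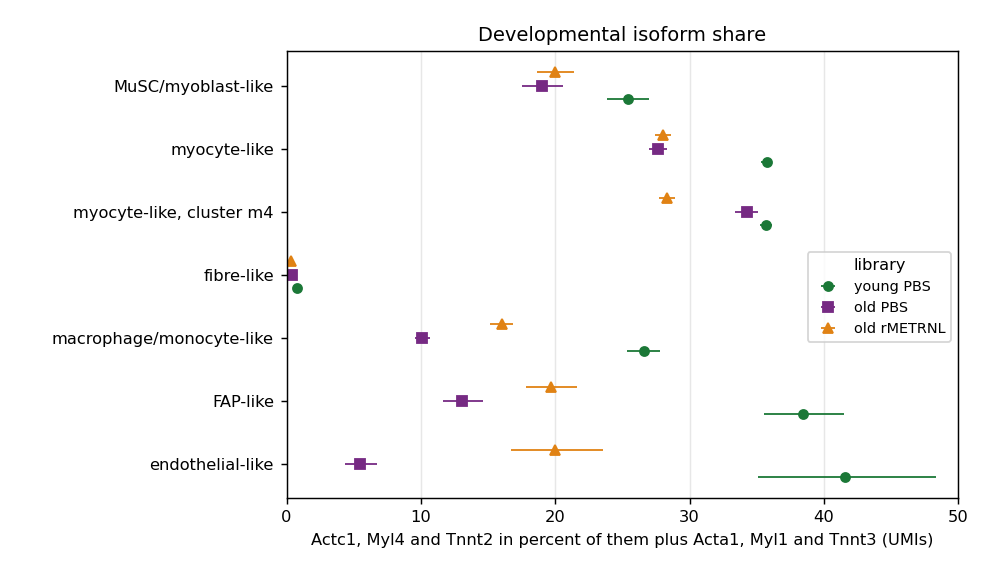
Share of developmental isoforms (Actc1, Myl4 and Tnnt2) among the UMIs of these and of Acta1, Myl1 and Tnnt3, in percent, by cell class and library, and in the myocyte-like cluster led by Myog and Myh3 (m4), with exact 95% binomial intervals. Fibre-like cells lie under 1%, myocyte-like cells between 27.6% and 35.7%, and in macrophage/monocyte-like, FAP-like and endothelial-like cells the share is highest in young PBS and lowest in old PBS.

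To tell a class's own transcripts from free fibre RNA, each member was set against 11 anchor genes of mature fibres (Myh1, Myh2, Myh4, Pgam2, Cox6a2, Apobec2, Mylk2, Cacna1s, Smtnl1, Sln and Cmya5), since free RNA from 1 source keeps its genes in 1 ratio in every class. That there was 1 source was assumed, and the developmental isoform shares above differed between non-muscle classes of the same library. A member stood above free RNA in a class where its UMIs per anchor UMI were at least 2 times those in macrophage/monocyte-like cells of the same library, with an interval above 1, in all 3 libraries and with at least 20 UMIs. The class did not have to reach that number of UMIs on its own. Of 38 members tested in FAP-like cells, 3 stood above it (Tpm2, Ampd1 and Des), where 18.9% of all genes did. In pericyte/smooth muscle-like cells 5 of 36 did (Tpm2, Ldb3, Pygm, Des and Myom1, against 8.27% of genes). In endothelial-like cells 4 of 37 did (Tpm2, Ampd1, Pygm and Des, against 20.2%), in tenocyte-like cells 1 of 37 (Tpm2, against 10.7%) and in T/NK-like cells 1 of 36 (Actn2, against 6.32%). None of 37 did in dendritic-like or Schwann/glial-like cells, where 1.57% and 9.48% of genes did. Most members had under 20 UMIs in Schwann/glial-like cells, which held 1, 6 and 2 anchor UMIs, so there was little room for a call. The shares of members were at or under the share of all genes in all of these classes except pericyte/smooth muscle-like cells. The other 34 members were called in none of these 7 classes.

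Tpm2, beta-tropomyosin, which also lies along the actin of smooth muscle and stromal cells, stood farthest above free RNA outside muscle. In pericyte/smooth muscle-like cells it reached 1565 CPM in young PBS, 1269 in old PBS with 2408 in old rMETRNL, with at least 1 UMI in 82.9%, 61.0% and 75.9% of cells. In T/NK-like cells a UMI was found in 6.10%, 10.3% and 8.13%, at median depths of 5820, 5984 and 5080 against 6606.5, 4146 and 4453 in pericyte/smooth muscle-like cells. FAP-like cells had 198, 132 and 183 CPM of Tpm2 and tenocyte-like cells 128, 163 and 152. Per anchor UMI it was 230 times (104 to 629), 43.1 times (28.1 to 69.5) and 88.6 times (56.7 to 146) the macrophage ratio in pericyte/smooth muscle-like cells, and 10.8, 6.28 and 11.6 times in FAP-like cells. Old PBS was the lowest library for Tpm2 in both classes. Des, desmin, the intermediate filament of muscle cells, followed at 339, 240 and 281 CPM in pericyte/smooth muscle-like cells and 34.3, 31.2 and 31.9 CPM in FAP-like cells, with young PBS highest in each.

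In FAP-like cells many fibre transcripts differed between libraries although the summed level hardly did. Tpm2 alone gave 65.3%, 39.8% and 58.6% of the class's member UMIs in young PBS, old PBS and old rMETRNL, lowest in old PBS. With age 12 of 29 members tested were called higher (Acta1, Tnnc2, Tnnt3, Tnni2, Myl1, Mylpf, Actn3, Tcap, Pvalb, Atp2a1, Ckm and Mb, against 1.89% of all genes) and 2 lower (Car3 and Jsrp1, against 1.94%). With rMETRNL 0 of 31 were called higher, against 1.07% of genes, and 7 lower (Acta1, Tnnc2, Myl1, Tcap, Pvalb, Atp2a1 and Ckm, against 1.05%). Acta1 was counted at 6.27, 27.8 and 13.8 CPM, a ratio of 4.43 (3.88 to 5.06) with age and 0.496 (0.447 to 0.549) with rMETRNL. Ckm was at 1.15, 9.29 and 4.28 CPM and differed 8.05-fold (6.03 to 10.9) with age. Old PBS was the highest library for both. Jsrp1 was at 2.19, 0.967 and 1.27 CPM on 106, 31 and 60 UMIs, highest in young PBS.

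Some anchors were not fibre genes in every class, so that ratios against them can miss a class's own transcripts. Cmya5 gave 983, 659 and 849 of the 1078, 888 and 1025 anchor UMIs of FAP-like cells, and Cox6a2 and Cacna1s were counted in dendritic-like cells. With the 8 other anchors, an alternative chosen after the data had been seen, 7 of 38 members were called in FAP-like cells (Myl4, Tpm2, Neb, Ldb3, Ampd1, Pygm and Des), where 49.8% of all genes were. The count was then 2 of 37 in dendritic-like cells (Tnni2 and Ryr1, against 5.56%), 2 of 37 in endothelial-like cells (Tpm2 and Pygm, against 15.1%) and 2 of 36 in pericyte/smooth muscle-like cells (Tpm2 and Des, against 5.76%). Tpm2 was again the 1 member called in tenocyte-like cells (against 13.1%) and Actn2 the 1 in T/NK-like cells (against 4.33%), and none was called in Schwann/glial-like cells (against 4.88%). Against a different measure, the member's UMIs per 100 UMIs of the other members (Tpm2 and Des left out), Tpm2, Ldb3, Ampd1, Pygm and Myom1 exceeded the highest muscle class at least 2-fold in FAP-like cells of all 3 libraries. They were 5 of the 26 members with at least 20 UMIs in each library, where 98.7% of all such genes exceeded it, so the measure sets these genes apart from the other members and not from genes at large. In macrophage/monocyte-like cells, the reference class of the ratios above, Ampd1 and Myom1 did so, 2 of 36 members against 89.0% of genes, so that for these 2 genes the ratios to that class are not ratios to fibre RNA alone. This measure was also chosen after seeing the data.

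By the same measure Tnni2, Ryr1 and Myom1 exceeded the highest muscle class in dendritic-like cells (3 of 11 members, against 92.5% of genes), and the first 2 were also called with the 8 anchors. Tnni2, fast troponin I, was counted there at 87.6, 87.5 and 80.0 CPM in young PBS, old PBS and old rMETRNL, nearly level across libraries, and in 42.8%, 48.0% and 41.2% of cells. In T/NK-like cells of the same libraries it was found in 4.23%, 15.7% and 4.07%, at depths of 5820, 5984 and 5080 against 10514, 11814 and 10561 in dendritic-like cells. Per 100 UMIs of other members it stood at 96.1, 30.1 and 50.7 in dendritic-like cells, against 8.52, 8.21 and 8.72 in fibre-like cells, the highest of the muscle classes. Acta1, the most abundant fibre transcript, was in contrast at 10.2, 49.2 and 30.1 CPM in dendritic-like cells, the old PBS library highest as in macrophage/monocyte-like and FAP-like cells. Ryr1, the ryanodine receptor, was at 18.4, 22.6 and 19.8 CPM, in 17.4%, 20.3% and 17.7% of dendritic-like cells and in 0.939%, 1.62% and 0.813% of T/NK-like cells. Tnni2 and Ryr1 were therefore counted in dendritic-like cells at a level that did not follow the fibre transcripts between libraries.

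Myom1, myomesin 1, which crosslinks thick filaments at the M line, exceeded the highest muscle class at least 2-fold per 100 UMIs of the other members in macrophage/monocyte-like, dendritic-like, endothelial-like, FAP-like and pericyte/smooth muscle-like cells. In endothelial-like cells 3 of 13 members did so against 90.4% of genes, and in pericyte/smooth muscle-like cells 2 of 3 against 86.1%. In macrophage/monocyte-like cells it was counted at 7.31, 9.88 and 5.70 CPM and in 9.49%, 12.2% and 8.08% of cells, while in T/NK-like cells 1, 0 and 0 UMIs were found; taken as the limit of 3 counts that a count of 0 allows, 0 of 185 and 0 of 123 cells leave room for up to 1.62% and 2.44% of cells with a UMI, which does not bound the share of cells that express the gene. Dendritic-like cells had 5.25, 6.84 and 5.39 CPM on 38, 30 and 39 UMIs and endothelial-like cells 2.45, 4.66 and 2.94 CPM on 25, 31 and 33 UMIs. Of the UMIs of Myom1 and its fast-fibre counterpart Myom2, Myom1 gave 96.8%, 96.0% and 96.1% in macrophage/monocyte-like cells but 53.1%, 58.8% and 55.0% in fibre-like cells. In pericyte/smooth muscle-like cells its level was 33.1, 70.5 and 114 CPM, with 24, 40 and 61 UMIs. Actn2, an alpha-actinin of the Z disc, was counted at 10.3, 13.5 and 21.2 CPM in T/NK-like cells with 18, 21 and 18 UMIs, in 5.16%, 7.03% and 7.32% of cells, against 0.367%, 0.706% and 0.540% of macrophage/monocyte-like cells. Car3 in FAP-like cells rested on few cells in 1 library, with 236 UMIs in only 0.690% of cells in young PBS against 42 and 49 UMIs in 2.35% and 1.19% in the old libraries.

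In MuSC/myoblast-like cells Ttn and Des had the highest counts of the members. Des was counted at 819, 845 and 808 CPM in young PBS, old PBS and old rMETRNL and in 98.7%, 97.4% and 96.7% of cells. Ttn, titin, the spring that spans the sarcomere from Z disc to M line, was at 853, 1041 and 948 CPM, Tpm2 at 255, 284 and 229, and Jsrp1, a protein of the triad junction, at 87.9, 91.2 and 82.7. The libraries lay close together for each of these genes. Actn3, the fast-fibre alpha-actinin, was found in 77.5%, 74.7% and 73.2% of cells. Ckmt2, Mybpc2, Myot and Xirp2 had at most 3 UMIs in any library. Set against free RNA as above, 12 of 38 members tested stood above the macrophage ratio (9.36% of all genes did), namely Des, Ttn, Neb, Tpm2, Tnnt1, Tnnt2, Tnnt3, Actn3, Mybpc1, Atp2a1, Casq1 and Jsrp1.

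The summed level of MuSC/myoblast-like cells was 1.22 times as high (1.20 to 1.24) in old PBS as in young PBS, and 0.799 times (0.785 to 0.813) in old rMETRNL as in old PBS. Of 26 members tested with age, 5 were called higher (Acta1, Actc1, Ckm, Myl4 and Trdn) and 1 lower (Casq1), where 0.797% and 0.893% of all genes were. Of 25 tested with rMETRNL, 0 were called higher and 6 lower (Acta1, Actc1, Ckm, Myl4, Pygm and Myom1), where 0.72% and 0.883% of genes were. Acta1 had 444 UMIs in young PBS, 710 in old PBS against 612 in old rMETRNL, that is 39.4, 147 and 53.5 CPM, with old PBS highest. Its ratio was 3.73 (3.31 to 4.21) with age and 0.364 (0.326 to 0.406) with rMETRNL. Ckm was at 1.87, 16.4 and 5.34 CPM, Actc1 at 3.82, 12.4 and 4.81, Myl4 at 16.0, 43.5 and 11.9, and Trdn, triadin, which anchors calsequestrin at the triad, at 1.42, 7.26 and 0.787. Casq1, calsequestrin 1, the calcium store protein, was at 7.91, 3.94 and 3.85 CPM, a ratio of 0.498 (0.287 to 0.824) with age. Median log2 ratios of the members tested were 0.58 and -0.53, against 0.00047 and -0.0045 over all genes.

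These differences rested to a large part on very few cells. The 2 of 154 cells of old PBS with the most member UMIs held 19.0% of the class's member UMIs, against 5.59% in 3 of 315 cells of young PBS and 4.85% in 3 of 336 of old rMETRNL, and 1 of them alone had 3013 member UMIs among 49225, with 203 UMIs of the anchor genes. The median cell gave 0.267%, 0.251% and 0.251% of its UMIs to the members. Without these 3, 2 and 3 cells the summed level was 3132, 3268 and 3063 CPM, the ratio with age was 1.04 (1.02 to 1.06) and that with rMETRNL 0.937 (0.920 to 0.955). With age 2 members were then called higher (Acta1 at 2.16, 1.87 to 2.49, and Ckm at 3.66, 2.06 to 6.66, against 0.569% of all genes) and 1 lower (Casq1 at 0.291, 0.128 to 0.584, on 9 and 72 UMIs, against 0.994%). With rMETRNL 0 were called higher, against 0.762% of genes, and 1 lower (Myom1, against 0.54%). With doublet calls kept in, the ratios were 2.35 and 0.457.

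Myocyte-like cells had the highest share of developmental isoforms among the muscle classes in every library. Against free RNA 20 of 40 members tested stood above the macrophage ratio, where 1.79% of all genes did, among them Acta1, Actc1, Mylpf, the fast regulatory light chain, Myl4, Tnnt1, Tnnt2, Tnnc1 and Tnni1. Acta1 was counted at 4413, 4777 and 3288 CPM in young PBS, old PBS and old rMETRNL, Mylpf at 3728, 4275 and 3012, and Ttn at 3351, 2908 and 3749. Actc1 was at 1532, 1348 and 576 CPM, Tnnt2 at 1400, 1204 and 847, and Myl4 at 805, 743 and 559. For these 3 developmental isoforms young PBS was highest and old rMETRNL lowest. Neb, nebulin, the ruler of the thin filament, at 730, 770 and 778 CPM, and Des, at 1480, 1631 and 1486, were nearly level.

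The summed level in myocyte-like cells was 1.16 times as high (1.15 to 1.17) in old PBS as in young PBS and 0.679 times (0.671 to 0.687) in old rMETRNL as in old PBS. As member UMIs per cell the order with age turned, with means of 831, 814 and 691 UMIs, a ratio of 0.979 with age and 0.849 with rMETRNL, at median depths of 26417, 16632.5 and 23288 UMIs. With age 11 of 39 members tested were called higher and 0 lower, where 2.78% and 1.11% of all genes were. They were Ckm, Mb, Car3 and Pygm, glycogen phosphorylase, of metabolism, Tcap, Myoz1, Myot, Smpx and Ankrd23 of the Z disc and cytoskeleton, Mybpc2 of the thick filament and Pvalb of calcium handling. With rMETRNL 0 of 38 were called higher and 18 lower, against 1.42% and 1.45% of genes. They were Actc1, Tnnt3 and Tnni2 of the thin filament, Myl1, Mybpc1, Mybpc2 and Myom1 of the thick filament, Actn2, Tcap, Myoz1, Smpx, Ankrd23 and Xirp2 of the Z disc and cytoskeleton, Pvalb, and Ckm, Mb, Car3 and Pygm of metabolism. Pvalb had 4, 415 and 12 UMIs in the 3 libraries, Car3 1, 88 and 19, Mybpc2 2, 65 and 6, and Myoz1, which binds calcineurin at the Z disc, 16, 114 and 11. Old PBS was far above the other libraries in each of them. Ckm was at 243, 828 and 186 CPM, a ratio of 3.41 (3.15 to 3.70) with age and 0.225 (0.204 to 0.248) with rMETRNL.

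The old PBS UMIs of Pvalb, Car3, Mybpc2, Myoz1 and Tcap came mostly from 6 cells. The myocyte-like class joined 3 clusters. The first had Myog, Myh3, Mymk and Mymx among its leading genes (86, 21 and 49 cells), and the second Myog, Chrna1 and Dmpk (14, 17 and 18 cells). The third was of cells with few UMIs (51, 22 and 28 cells). It was led by Gal, Ankrd1, Phgdh, Hist1h1b and Rrm2, with only 1 marker of its class among its leading genes. In the second of these, 9 of the 17 cells of old PBS had at least 100 isoform UMIs, and 6 of these had under 1% developmental isoforms, gave 7.17% to 16.3% of their 4989 to 25734 UMIs to the members and held 65.9% of the cluster's member UMIs. They held 399 of its 411 Pvalb UMIs, 85 of 86 of Car3, 60 of 62 of Mybpc2, 104 of 107 of Myoz1 and 164 of 167 of Tcap. In that cluster 3 cells of young PBS and 2 of old rMETRNL had as many isoform UMIs; 0 and 1 of them were under 1%, and the latter gave 1.22% of its 58596 UMIs to the members. In the first cluster 0 of 58, 0 of 18 and 0 of 27 cells were, and in the third no cell had enough isoform UMIs to be judged. Ckm was spread more widely, with 300 of its 1296 UMIs of old PBS in the first cluster. What these barcodes hold was not tested.

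Within the cluster led by Myog and Myh3 alone, a choice made after seeing the data, the summed levels were close. They differed 1.018-fold (1.005 to 1.030) with age and 0.932-fold (0.920 to 0.945) with rMETRNL. The median cell gave 2.62%, 1.45% and 2.17% of its UMIs to the members, lowest in old PBS, whose sum rests on 21 cells. With age 1 of 34 members was called higher (Tcap, against 0.866% of all genes) and 1 lower (Xirp2, against 1.89%). With rMETRNL 2 of 33 were called higher (Ankrd23 and Xirp2, against 2.09%) and 1 lower (Actn2, against 0.745%). Developmental isoforms made up 35.7%, 34.2% and 28.3% of the isoform UMIs there, with medians over cells of 35.8%, 37.2% and 28.5% in the 75, 18 and 34 cells with at least 50 such UMIs. In the whole class the share was 35.7%, 27.6% and 28.0%, so that the difference between young PBS and old PBS shrank from 8.09 to 1.45 percentage points and the one between old PBS and old rMETRNL grew from 0.352 to 5.91 percentage points, with its sign turned.

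Of the isoform pairs of this cluster, actin had the largest gap between old PBS and old rMETRNL in sums. Actc1 made up 25.5% of the UMIs of the 2 actins in young PBS, 26.4% in old PBS with 15.2% in old rMETRNL, with medians over cells of 24.4%, 25.2% and 12.5%. The old rMETRNL library was lowest, and its lower quartile was 1.27% against 12.7% and 3.41%. The 5 cells with the most Actc1 held 36.9%, 81.0% and 69.8% of its UMIs, so that sums of the old libraries rest on few cells; for Myl4 and Tnnc1 the 5 cells with the most of each held 82.96% and 93.1% in old PBS. Myl4 made up 44.3%, 42.7% and 40.9% of the UMIs of Myl4 and Myl1, and Tnnt2 52.4%, 43.6% and 47.9% of those of Tnnt2 and Tnnt3. Of the slow troponins, Tnnt1 made up 42.9%, 33.4% and 30.3% with Tnnt3, Tnni1 47.1%, 42.5% and 42.4% with Tnni2, and Tnnc1 27.0%, 25.9% and 23.0% with Tnnc2. The medians over cells lay further apart than the sums for some pairs, at 44.2%, 31.9% and 28.9% for Myl4, 45.6%, 33.5% and 24.8% for Tnnt1, 50.3%, 38.3% and 34.3% for Tnni1 and 28.0%, 17.5% and 21.9% for Tnnc1, with 8 to 12 cells of old PBS behind each. Young PBS was highest for 5 of these 6 pairs by sums and by medians, and for actin old PBS was.

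**Figure D5:**
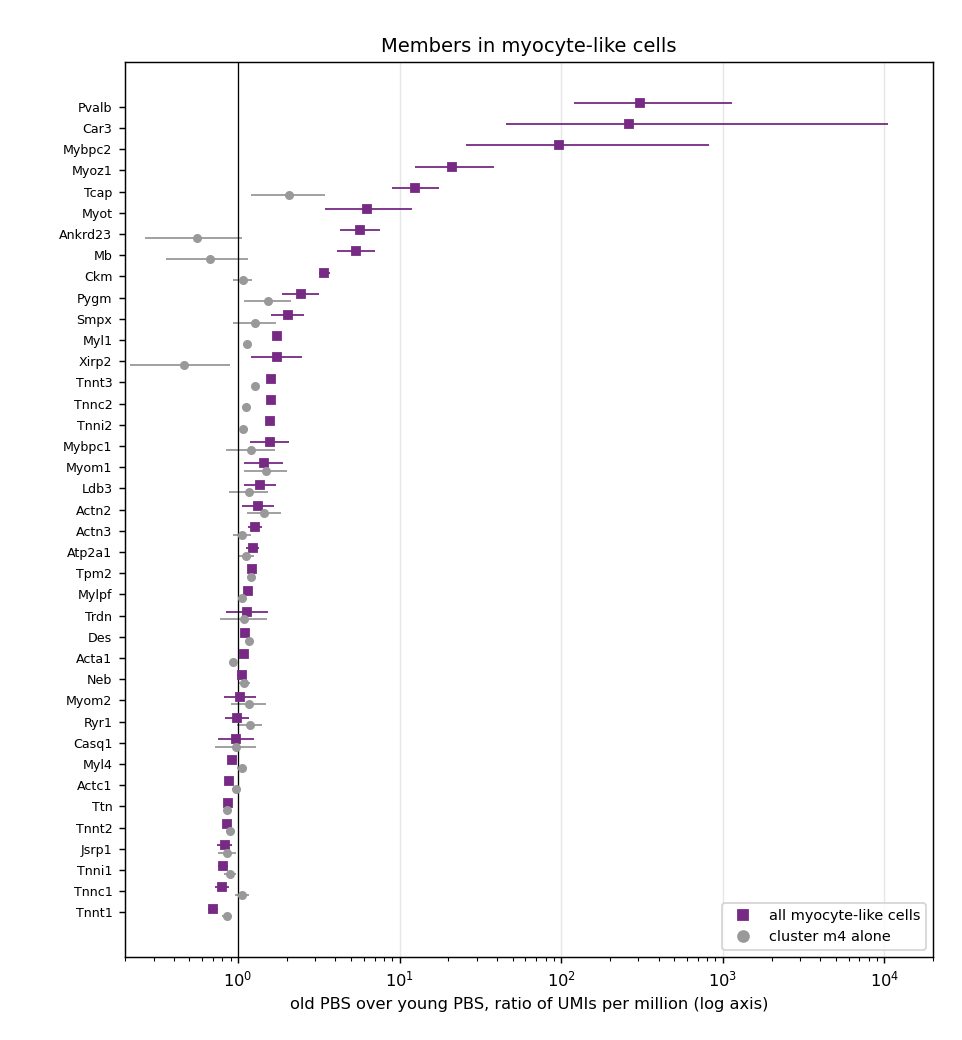
Ratio of CPM in myocyte-like cells (log axis, 1 marked by a line) for the members tested, old PBS over young PBS, in the whole class (squares) and in the cluster led by Myog and Myh3 alone (circles, named m4), with exact 95% counting intervals. In the whole class Pvalb, Car3 and Mybpc2 reach ratios of 309, 262 and 96.8 with age, while in the 1 cluster the members tested lie between 0.465 and 2.06.

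In CPM, fibre-like cells differed little between libraries. Members gave 26.4%, 24.5% and 25.97% of the UMIs of the median cell, whose depth was only 3160, 2082 and 2270 UMIs, and the summed ratios were 0.928 (0.918 to 0.938) with age and 1.05 (1.04 to 1.06) with rMETRNL, or 0.729 and 1.11 as member UMIs per cell. Acta1 was counted at 50750, 48155 and 51939 CPM, Mylpf at 43105, 39015 and 37139, Tnnc2 at 30749, 28087 and 28743, Myl1 at 30560, 27376 and 28351, and Ckm at 22610, 19427 and 20770. Each of these genes was found in every fibre-like cell. With age 2 of 40 members tested were called higher (Ttn and Ryr1) and 2 lower (Actc1 and Tnni1), where 3.47% and 1.58% of all genes were. With rMETRNL 2 were called higher (Actc1 and Ckmt2, the sarcomeric mitochondrial creatine kinase) and 1 lower (Tnnt1), where 0.794% and 2.28% of genes were. Ttn was at 623, 1528 and 2083 CPM, with young PBS lowest, and Ryr1 at 87.0, 195 and 100 CPM on 12, 272 and 44 UMIs. Actc1 had 50, 171 and 111 UMIs, that is 362, 123 and 253 CPM, and Ckmt2 was at 616, 321 and 687 CPM. The young PBS values rest on 33 cells.

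The remaining calcium and metabolic members of fibre-like cells were not called with age or with rMETRNL. Pvalb was at 4667, 5045 and 5139 CPM, Car3 at 2471, 3194 and 3141, Mb at 2449, 2807 and 3159 and Atp2a1, the fast SERCA pump, at 4747, 3046 and 2961, with young PBS highest for the last and lowest for the others. Car3 was the 1 member of 41 that stood above the macrophage ratio to the anchors in this class. It was also the only 1 of all 13644 genes tested that did (0.00733%). Ampd1, AMP deaminase, the calcium store genes Casq1 and Trdn, and the M line genes Myom1 and Myom2 were each at or under 558 CPM. The developmental isoforms together were under 1% of the isoform UMIs in each library, so that the name of mature fibre genes does not hold for Actc1, Myl4 and Tnnt2 here.

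Other genes of the sarcomere and triad, 40 symbols that are no members and include the myosin heavy chains, the tropomodulins and the L-type calcium channel, were tested in the same way. In macrophage/monocyte-like cells 4 of 29 tested were higher with age (Myh1, Myh4, Tmod4 and Pgam2) and 0 lower, against 1.78% and 1.59% of all genes. With rMETRNL 0 of 32 were higher and 4 lower (Myh1, Myh4, Tmod4 and Cacna1s), against 1.23% and 0.674%. In MuSC/myoblast-like cells 5 of 26 were higher (Myh1, Myh3, Myh8, Nrap and Hrc) and 1 lower (Pdlim3) with age, against 0.797% and 0.893% of all genes. With rMETRNL 0 of 26 were higher and the same 5 lower, against 0.72% and 0.883%. These counts include the few cells of old PBS with the most member UMIs, and no count without them is given. In myocyte-like cells 2 of 35 were higher (Myh4 and Mylk2) and 0 lower with age, against 2.78% and 1.11% of all genes. With rMETRNL 0 of 34 were higher and 5 lower, against 1.42% and 1.45%. This class includes the cells of old PBS, described above, that had under 1% developmental isoforms. In fibre-like cells 1 of 32 was higher (Myh4) and 1 lower (Myoz2) with age, against 3.47% and 1.58% of all genes. With rMETRNL 2 of 32 were higher (Myoz2 and Sypl2) and 0 lower, against 0.794% and 2.28%. The adult fast myosin Myh4 was called higher with age in 3 of these 4 classes. Myh1, Myh2 and Myh4 are closely related genes, so that the division of their UMIs among them may be uncertain, which was not tested.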

How the data were processed

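Single-cell RNA sequencing (10x Genomics) of 3 libraries was used. The authors deposited raw UMI counts (a gene by barcode matrix), made by Cell Ranger 5.0.0 per the file headers; their processing notes name mm10 and also Cell Ranger 3.1.0, the study's methods name another version, and the difference was not resolved here. Counts were used as deposited. Barcodes of 500 genes or more with a mitochondrial share under 10% counted as cells, doublets were called with Scrublet in scanpy 1.11.5 at a rate of 0.8% per 1000 barcodes and removed (1110, 1112 and 1433 calls), and 2000 variable genes without the 41 members, 30 principal components and 20 neighbours were clustered with Leiden (leidenalg 0.10.2) at resolution 0.8, without integration, and muscle clusters again. The members and lists were chosen with earlier results of these data known, and the naming rule was revised after cluster tables had been seen.

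UMIs were summed per class and library. CPM is not scaled to transcript length, so levels were compared within a gene. Levels have exact Poisson intervals, shares exact (Clopper-Pearson) binomial intervals and ratios the exact interval conditional on the sum. Members named are those called, those with the highest levels and the isoform pairs; Tnni2, Ryr1, Myom1 and Actn2 outside muscle were chosen after their values were seen. The steps were tested on simulated data. Python 3.11.15, numpy 2.4.6, scipy 1.17.1, pandas 2.3.3 and matplotlib 3.10.9 were used. Sequences are from RefSeq, GRCm38.p6.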

Additional observations from a re-analysis of the deposited data

Results flagged for a closer look

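Barcodes with under 500 genes were left out of every comparison and held a signal of the members. There were 308, 990 and 746 of them in young PBS, old PBS and old rMETRNL, and the members gave 1.38%, 5.29% and 2.06% of their UMIs, against 0.127%, 0.311% and 0.134% in kept cells. In 14, 79 and 36 of them the members gave at least 20% of the UMIs. Developmental isoforms made up 3.32%, 0.668% and 1.23% of the isoform UMIs of these barcodes.

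Some members were called in opposite directions in different classes, and the differences between classes were not tested. With age Actc1 was higher in MuSC/myoblast-like cells (3.26-fold) and lower in fibre-like cells (0.339-fold). With rMETRNL it was lower in MuSC/myoblast-like cells (0.387-fold) and in myocyte-like cells (0.428-fold) and higher in fibre-like cells (2.06-fold). Car3 was higher with age in myocyte-like cells (262-fold, on 1 and 88 UMIs) and in macrophage/monocyte-like cells (3.94-fold) and lower in FAP-like cells (0.269-fold, where 236 UMIs of young PBS lay in 0.690% of cells). Casq1 was lower with age in MuSC/myoblast-like cells (0.498-fold) and higher in macrophage/monocyte-like cells (2.82-fold). In MuSC/myoblast-like cells without the few cells with the most member UMIs, Actc1 differed 1.97-fold (1.20 to 3.22) with age, just under the 2-fold limit, and 0.702-fold (0.448 to 1.12) with rMETRNL, and Casq1 was still called (0.291-fold with age).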

How the results depend on the processing

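With 1 library in each group no replicate could be left out, and p-values were not computed. No paired analysis was possible because each group was 1 library. Of 125 alternative values, 78 planned and 47 chosen after seeing the data, 42 stayed within the counting interval or within 1.5 times the count, 80 were counted as moved and 3 as turned in direction. Those 3 were ratios taken as member UMIs per cell, 0.979 with age in myocyte-like cells in place of 1.16, and 0.871 with age and 1.09 with rMETRNL in FAP-like cells in place of 1.10 and 0.943. Other signs also changed without being among those 3. The developmental share difference with rMETRNL in myocyte-like cells, given below, changed sign under some alternatives. The ratio with age in pericyte/smooth muscle-like cells was 1.05 in CPM and 0.639 per cell. On that scale the ratio with age was 2.04 in macrophage/monocyte-like and 1.07 in MuSC/myoblast-like cells, and that with rMETRNL 0.868 in MuSC/myoblast-like and 0.849 in myocyte-like cells. In macrophage/monocyte-like cells the ratio with age of 1.97 was 2.11 with limits of 1000 genes and 5% mitochondrial UMIs, 2.08 with doublet calls kept, 2.02 without the 1% of cells with the most member UMIs and 2.30 as a mean over cells; that with rMETRNL of 0.606 was 0.573 with limits of 200 genes and 20%, and 0.574, 0.574, 0.564 and 0.582 in the order given before. In MuSC/myoblast-like cells the ratio with age of 1.22 was 1.16 with the looser limits, 1.05 with the stricter ones, 2.35 with doublet calls kept, 1.10 at resolution 1.6, 1.003 with members among the variable genes, 1.04 without the fullest cells and 1.17 as a mean over cells; with rMETRNL these gave 0.838, 0.922, 0.457, 0.922, 0.985, 0.937 and 0.844 in place of 0.799. In myocyte-like cells the ratio with age of 1.16 was 1.69 with the stricter limits, 1.19 with doublet calls kept, 1.11 at resolution 1.6, 1.24 with members among the variable genes, 1.13 without the fullest cells, 1.55 as a mean over cells, 1.018 in the cluster led by Myog and Myh3 alone and 1.01 without the cluster led by Myog and Chrna1. With rMETRNL it was 0.736 with the looser limits, and then in the same order 0.411, 0.762, 0.619, 0.532, 0.632, 0.525, 0.932 and 0.927, in place of 0.679. The developmental share in myocyte-like cells differed by -8.83 percentage points with age under the looser limits, -27.8 under the stricter ones, -4.81 with doublet calls, -10.3 without the fullest cells, -1.45 in the cluster led by Myog and Myh3 and -1.75 without the one led by Myog and Chrna1, in place of -8.09; with rMETRNL it differed by 1.020, 16.4, -4.26, 3.79, -5.91 and -5.65, in place of 0.352. The count of members above free RNA in pericyte/smooth muscle-like cells, 5 in the text, was 2 of 36 under the stricter limits, where 7.29% of all genes were, 3 of 13 with dendritic-like and T/NK-like cells as the reference (19.9% of genes), 2 of 36 with the other members as the anchor (3.96%) and 2 with 8 anchors (5.76%). In FAP-like cells it was 8 of 29 with that reference (7075 of 14156 genes) and 7 with 8 anchors (49.8%), in place of 3, and in tenocyte-like cells 3 of 16 with that reference (27.1%), in place of 1. The summed ratios of MuSC/myoblast-like and myocyte-like cells and the developmental share therefore depend on which few cells are counted; beyond the few cells named in the text, the cause was not tested. Low counts limit the rest, since 26 of 41 members in MuSC/myoblast-like cells reached 50 UMIs with age, and pericyte/smooth muscle-like cells had 6, 22 and 20 anchor UMIs.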
